A study of Mus musculus with 28 samples.

Results

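Retinoid binding and metabolism genes are described here across cultures of O9-1, a mouse cranial neural crest line, kept proliferating or differentiated at 2 oxygen levels. The 9 genes are Crabp1, Crabp2, Aldh1a1, Aldh1a2, Aldh1a3, Cyp26b1, Rarb, Dhrs3 and Stra6, taken by symbol from a count table of 54429 gene identifiers. They were put together by function, and Crabp1 led the choice because it was among the strongest falls on differentiation. Values of these genes in the differentiation contrasts therefore helped to choose them and are given as a description, with no test. The rule does not name the contrasts between oxygen levels, which were tested, though the genes were chosen with earlier results of these data known.

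The series holds 28 polyA RNA-seq libraries in 8 groups, with 4 libraries in each group at 21% O2 (normoxic) and 3 in each at 0.5% O2 (hypoxic). Proliferating cells grew in STO-conditioned DMEM with 15% FCS, bFGF at 25 ng/ml and LIF at 5 ng/ml. Chondrocyte cultures had 3 days of osteoblast medium and then 7 days as micromass on matrigel, in medium with 5% FCS, ITS, dexamethasone at 0.1 µM, TGF-beta3 at 10 ng/ml and BMP-2 at 50 ng/ml. Osteoblast cultures had 10 days in medium with 10% FCS, beta-glycerophosphate, dexamethasone at 0.1 µM and BMP-2 at 100 ng/ml. Smooth muscle cultures had 3 days in DMEM with 10% FCS. Every culture came from the same line, and the labels do not say that replicates are separate cultures, so p-values measure the spread between these libraries, which may be technical.

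Retinol enters cells in part through the receptor Stra6, is oxidised to retinal and then, by the Aldh1a enzymes, to retinoic acid. Dhrs3 runs the first step backwards, from retinal to retinol. Retinoic acid is carried in the cell by Crabp1 and Crabp2, switches on target genes through receptors such as Rarb, and is broken down by Cyp26 enzymes. In the embryo the balance of synthesis and breakdown patterns the cranial neural crest, and retinoic acid bears on cartilage and bone formation in the face.

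Promoter sequence was taken from RefSeq (GRCm38.p6), which had windows for 7 of the 9 genes, 13 windows in all. The 250 bases before each start were searched on both strands for the retinoic acid receptor half-sites AGGTCA or GGGTCA, and their variants AGTTCA or GGTTCA, as direct repeats with 1, 2 or 5 bases between them. The 5-base repeat was present in 0.0883% of 32851 windows of all genes, the 1-base repeat in 0.164% and the 2-base repeat in 0.174%. Among the 13 windows 1 held such a repeat, that of Rarb, the receptor gene that retinoic acid itself is known to induce. Its repeat began 53 bases before the start at base 16575476 of chromosome 14 (position -53), and it is shown because it is the textbook kind of retinoic acid element, on the minus strand at chr14:16575507-16575536 with the half-sites in capitals.
Rarb: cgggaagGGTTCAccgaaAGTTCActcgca
A search added after the data were seen looked for the core of the hypoxia response element, ACGTG or GCGTG, which overlapped no half-site match in the windows of the 9 genes and was present in 38.6% of all windows. Of the 13 windows 3 held it, those of Crabp1, Aldh1a2 and Rarb. In Crabp1 it lay at positions -173 on the gene's strand and -37 on the other strand. The 200 bases before the Crabp1 start are shown because Crabp1 covers the widest range of levels of the 9 genes, on the plus strand at chr9:54764548-54764747 with the core in capitals.
Crabp1: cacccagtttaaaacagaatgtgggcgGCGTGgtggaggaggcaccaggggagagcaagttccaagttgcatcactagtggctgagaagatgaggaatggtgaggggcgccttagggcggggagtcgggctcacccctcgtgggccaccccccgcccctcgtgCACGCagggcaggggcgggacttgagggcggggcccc
A match is a description of these letters and says nothing of binding.

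Library totals ran from 19869271 to 64693346 counts. The 3 libraries labelled hypoxic smooth muscle stood apart: the 2 mitochondrial ribosomal RNAs took 11.6 to 13.3% of their counts, against 0.0889% or less in the other libraries, and their 10 most abundant genes took 27.1 to 28.5%. Acta2, smooth muscle actin, averaged 20.9 CPM (counts scaled for library depth with TMM factors) in them, against 3255 CPM in normoxic smooth muscle and 41.8 CPM in normoxic proliferating cells, and Myh11 averaged 0.583 CPM. The summed level of 4 immune markers was 33.6 to 37.4 CPM there, nearly all from Cd68, with Adgre1 at 0, and at most 5.86 CPM in the other groups. Chondrocyte cultures had the highest sums of 4 neuronal and glial markers, 53.9 to 85.3 CPM at 21% O2 and 71.8 to 103.0 CPM at 0.5% O2, against 17.5 CPM or less in the other groups. Of that list, Elavl3 had 17 counts and Sox10 1 over all libraries. Their part in the results was not tested. Normoxic osteoblast replicate 4 also stood apart: it had 45.4 CPM of Sp7, an osteoblast transcription factor, against 0.67 to 1.36 CPM in replicates 1 to 3, and 775.6 CPM of Col2a1 against 35.6 to 43.6 CPM. Chondrocyte cultures held more Ibsp, a bone matrix gene, than osteoblast cultures did (1174 against 1.13 CPM at 21% O2). Under 0.5% O2 the hypoxia-induced gene Ankrd37 averaged 45.4 to 107.4 CPM in the 4 groups, against 1.14 to 13.0 CPM at 21% O2.

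Crabp1, the cellular retinoic acid-binding protein thought to hold retinoic acid in the cytoplasm, lies at chr9:54764748-54773110 (mm10, plus strand). It was among the abundant transcripts of proliferating cells and nearly absent from chondrocyte cultures. Normoxic proliferating libraries held 2313, 2398, 2304 and 2186 CPM, and hypoxic ones 2832, 2726 and 2611 CPM, so the groups did not overlap. Normoxic smooth muscle libraries held 568.1, 572.2, 630.1 and 718.6 CPM, while the libraries labelled hypoxic smooth muscle held 2346, 3101 and 2472 CPM, 2 of them inside the range of the proliferating libraries and 1 above it. Scaled by library size alone they held 1249, 1564 and 1278 CPM, below all proliferating libraries (2611 to 3264 CPM). Normoxic osteoblast libraries held 35.5, 37.7, 39.2 and 8.04 CPM, and hypoxic ones 9.45, 8.15 and 8.49 CPM. Replicate 4 of the normoxic osteoblasts was thus below all 3 hypoxic libraries, and the other 3 were above them. Chondrocyte libraries held 0.494, 1.13, 1.07 and 0.873 CPM at 21% O2 and 0.322, 0.591 and 0.263 CPM at 0.5% O2. In the order of group means, hypoxic proliferating cells, the libraries labelled hypoxic smooth muscle and normoxic proliferating cells overlapped as neighbours, normoxic smooth muscle was separate from its neighbours, and the 2 osteoblast groups overlapped, as did the 2 chondrocyte groups.

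Crabp2, which carries retinoic acid to its receptors in the nucleus, lies at chr3:87948666-87953376 (plus strand) and followed another order. Its mean was highest in hypoxic chondrocyte cultures, and normoxic chondrocyte and normoxic smooth muscle libraries overlapped. Chondrocyte libraries held 40.6, 48.9, 48.4 and 80.3 CPM at 21% O2 and 87.1, 69.2 and 79.3 CPM at 0.5% O2, with replicate 4 of the normoxic group inside the hypoxic range. Normoxic proliferating libraries held 25.3, 29.4, 29.6 and 26.5 CPM, below the hypoxic 48.0, 44.6 and 46.8 CPM. The osteoblast groups were again split by replicate 4: 30.1, 28.4, 27.4 and 6.47 CPM at 21% O2 against 6.31, 7.15 and 8.52 CPM at 0.5% O2. Normoxic smooth muscle held 49.4, 49.1, 54.5 and 54.2 CPM, above the 28.8, 22.6 and 27.5 CPM of the libraries labelled hypoxic smooth muscle. Per kilobase of exon, normoxic proliferating cells averaged 2868 CPM of Crabp1 and 20.9 CPM of Crabp2, and normoxic chondrocyte cultures 1.11 and 41.3 CPM, so the more abundant of the pair differed between those cultures.

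**Figure D1:**
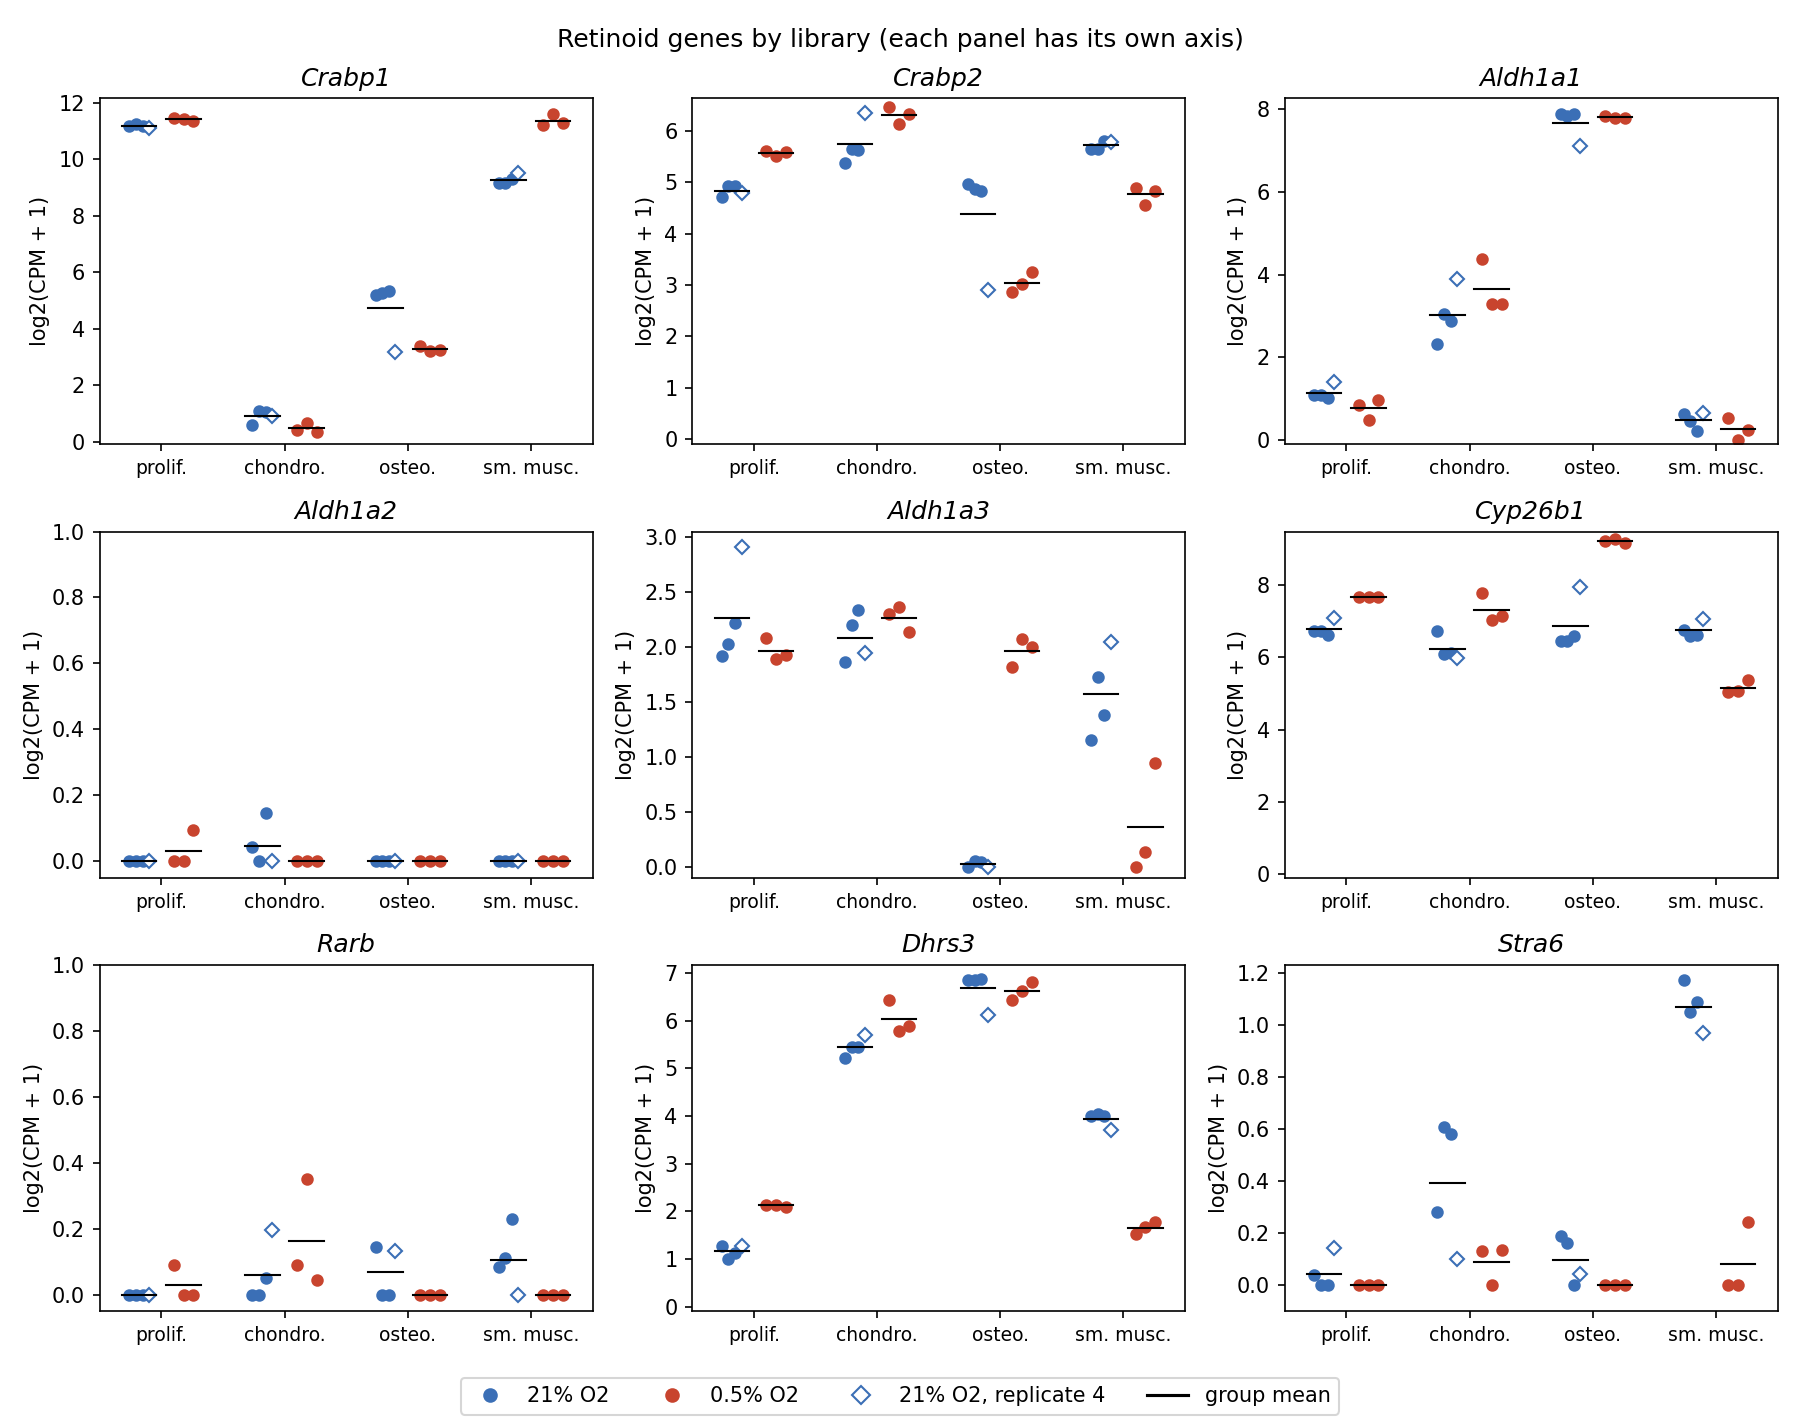
Level of each of the 9 genes in all 28 libraries as log2(CPM + 1), by culture on the horizontal axis, with 21% O2 in blue, 0.5% O2 in red, replicate 4 of the normoxic groups as open diamonds and bars at group means. Crabp1 goes from 2186 CPM or more in proliferating cells to 1.13 CPM or less in chondrocyte cultures, Aldh1a1 is highest in osteoblast cultures, and Aldh1a2 and Rarb stay near 0 in every group.

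Of the enzymes that make retinoic acid, Aldh1a1 (chr19:20492715-20643465, plus strand) was highest in the cultures kept in osteoblast medium: normoxic osteoblast libraries held 233.7, 225.3, 233.6 and 138.1 CPM and hypoxic ones 228.1, 220.1 and 219.7 CPM, with only replicate 4 outside a narrow band. Chondrocyte libraries came next with 4.01, 7.28, 6.37 and 13.8 CPM at 21% O2 and 19.7, 8.78 and 8.84 CPM at 0.5% O2, and these 2 groups overlapped. Proliferating cells held 0.395 to 1.65 CPM and smooth muscle cultures 0.583 CPM or less. Aldh1a3 (chr7:66390890-66427517, minus strand), another retinaldehyde dehydrogenase, was low in 6 of the groups, with means of 2.06 to 3.99 CPM. In normoxic osteoblasts it had 0, 0.0394, 0.0339 and 0 CPM, 2 counts in 4 libraries, while hypoxic osteoblasts had 2.52, 3.20 and 2.99 CPM. Here replicate 4 was within the range of replicates 1 to 3. In the libraries labelled hypoxic smooth muscle it was at 0, 0.0998 and 0.927 CPM, 11 counts in all. Aldh1a2 (chr9:71215789-71296243, plus strand), the main source of retinoic acid in the early embryo, had 4 counts in the normoxic chondrocyte group, at most 0.0685 CPM in any hypoxic library, and no count in 6 groups. It passed no filter on low counts.

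Dhrs3 (chr4:144892827-144928209, plus strand), which turns retinal back into retinol and is known as a gene that retinoic acid induces, was high where Crabp1 was low. Normoxic osteoblast libraries held 114.6, 115.4, 116.3 and 68.7 CPM and hypoxic ones 84.8, 97.9 and 112.1 CPM, and the groups overlapped through replicate 4. Normoxic chondrocyte libraries held 36.1, 42.9, 42.6 and 50.6 CPM, below the hypoxic 85.4, 54.0 and 58.2 CPM. Normoxic proliferating cells held 1.40, 1.00, 1.19 and 1.40 CPM, below the hypoxic 3.41, 3.41 and 3.29 CPM. Normoxic smooth muscle held 15.0, 15.4, 15.1 and 11.96 CPM, above the 1.88, 2.20 and 2.41 CPM of the libraries labelled hypoxic smooth muscle. Over the 8 group means of log2(CPM + 1), Crabp1 and Dhrs3 had a Pearson correlation of -0.884, the lowest among the 7 genes with a group mean of 1 CPM or more. Aldh1a1 and Dhrs3 had the highest, 0.848, and Crabp1 and Crabp2 had -0.054. These are descriptions over 8 points that share their libraries and scaling. Stra6 (chr9:58063788-58153996, plus strand), the receptor for retinol carried in blood, was at 1.26, 1.07, 1.13 and 0.963 CPM in normoxic smooth muscle. It was at 0.526 CPM or less in every other library and had no count in hypoxic proliferating or hypoxic osteoblast libraries.

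Cyp26b1 (chr6:84571414-84593908, minus strand), which breaks retinoic acid down, was present in every group, and hypoxic osteoblasts held the most, 592.0, 617.6 and 568.5 CPM. Normoxic osteoblasts held 86.2, 86.7, 95.8 and 244.9 CPM. Replicate 4 lay between its own group and the hypoxic libraries. Proliferating cells held 105.4, 104.7, 97.1 and 135.3 CPM at 21% O2 and 204.3, 202.7 and 201.5 CPM at 0.5% O2. Chondrocyte cultures held 105.7, 67.5, 68.7 and 62.0 CPM at 21% O2 and 218.6, 130.2 and 140.8 CPM at 0.5% O2. In these 3 cultures every hypoxic library was above every normoxic one. The order turned in smooth muscle, where 107.0, 95.7, 97.3 and 131.6 CPM at 21% O2 stood above 32.0, 32.5 and 40.4 CPM in the libraries labelled hypoxic. Hypoxic osteoblasts and the libraries labelled hypoxic smooth muscle were separate at the ends of the order, and the other 6 groups overlapped as neighbours. Rarb (chr14:16430839-16819156, minus strand), the receptor with the repeat shown above, reached at most 0.276 CPM in any library and passed no filter. Its gene model shares 1793 exon bases with Top2b on the opposite strand, and whether the counting used strand is not given in the sources used here.

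How far each gene moved on differentiation is a description here, since these contrasts chose the genes, and no calls are made on them. In chondrocyte cultures Crabp1 stood at -11.28 on the log2 scale against proliferating cells at 21% O2 (SE 0.15) and at -12.80 at 0.5% O2 (SE 0.15). Dhrs3 was higher by 5.22 (SE 0.15) and 4.28 (SE 0.20), Aldh1a1 by 2.76 (SE 0.36) and 4.08 (SE 0.46), and Crabp2 by 1.05 (SE 0.19) and 0.75 (SE 0.08). Chondrocyte cultures thus had less Crabp1 and more Crabp2, Dhrs3 and Aldh1a1 at both oxygen levels.

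Osteoblast cultures too had less Crabp1 and more Aldh1a1 and Dhrs3 than proliferating cells at both oxygen levels. Crabp1 stood at -6.21 (SE 0.47) at 21% O2 and -8.30 (SE 0.10) at 0.5% O2, Aldh1a1 was higher by 7.47 (SE 0.24) and 8.25 (SE 0.15), and Dhrs3 by 6.46 (SE 0.22) and 4.86 (SE 0.12). Aldh1a3, with 2 counts in normoxic osteoblasts, was lower there by a ratio of 210.9 (95% counting interval 58.2 to 1745), and stood at -0.005 (SE 0.22) at 0.5% O2. Crabp2 was at -0.21 (SE 0.37) at 21% O2 and -2.67 (SE 0.12) at 0.5% O2, and Cyp26b1 at 0.27 (SE 0.34) and 1.54 (SE 0.06). Without normoxic osteoblast replicate 4 the normoxic Cyp26b1 value was -0.29, so that library sets its sign.

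In normoxic smooth muscle Crabp1 stood at -1.83 (SE 0.07) against proliferating cells, Dhrs3 at 3.61 (SE 0.15), Crabp2 at 0.96 (SE 0.07) and Cyp26b1 at 0.02 (SE 0.13). In the libraries labelled hypoxic smooth muscle Crabp1 stood at 0.08 (SE 0.10) against hypoxic proliferating cells, Crabp2 at -0.70 (SE 0.11), Cyp26b1 at -2.42 (SE 0.10) and Dhrs3 at -0.53 (SE 0.30). Scaled by library size alone, the hypoxic value of Crabp1 was -1.21, so its sign depends on the scaling, and Crabp2 was at -1.97, Cyp26b1 at -3.69 and Dhrs3 at -1.80.

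**Figure D2:**
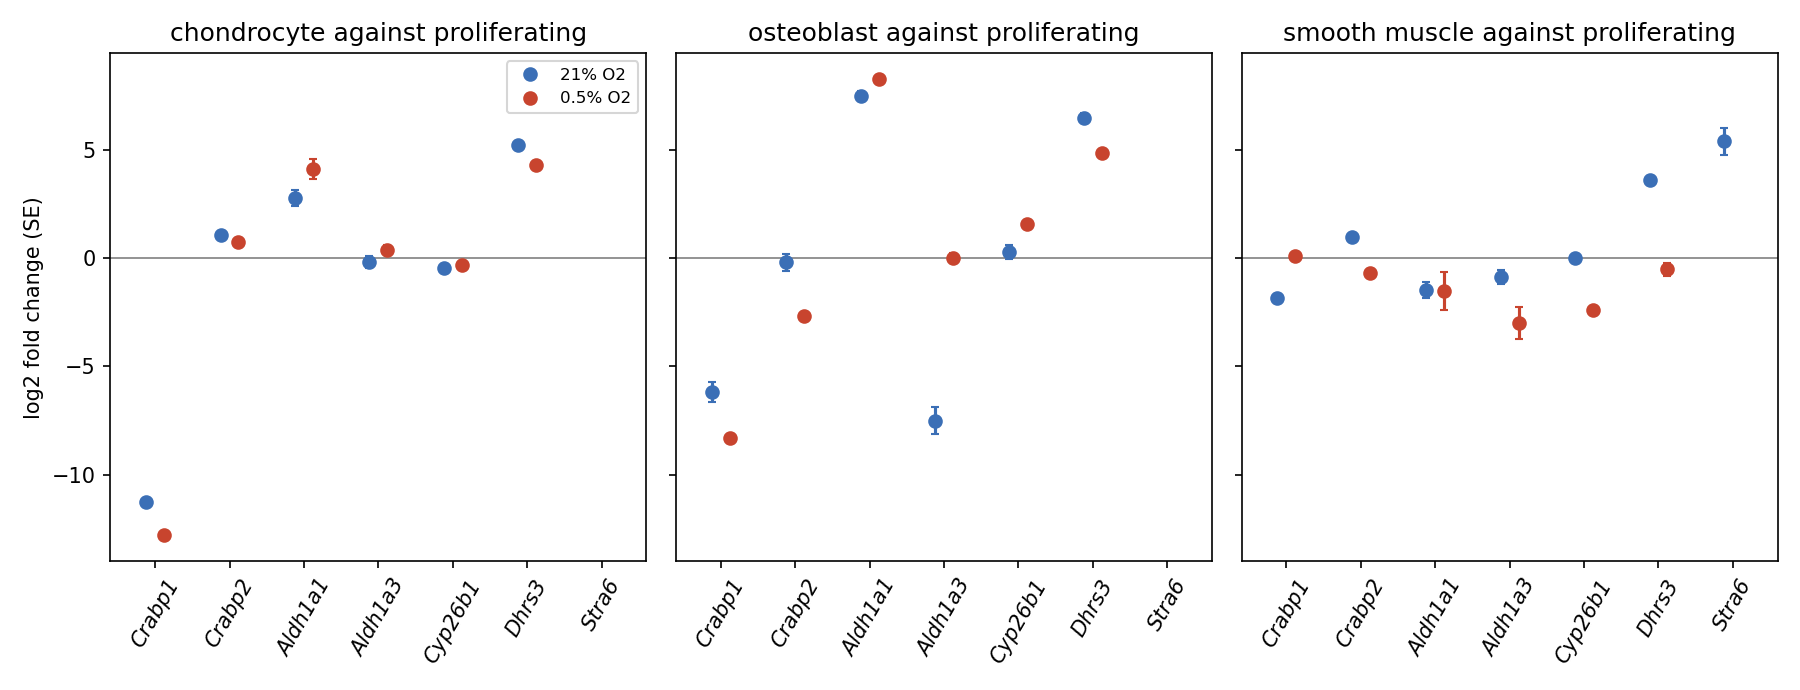
Log2 fold change of each tested gene in differentiated against proliferating cultures with its SE, one panel per lineage, 21% O2 in blue and 0.5% O2 in red. Crabp1 is at the bottom of the chondrocyte panel at both oxygen levels and of the osteoblast panel at 0.5% O2. Aldh1a3 is near -7.5 in normoxic osteoblasts alone, where it had 2 counts and lies below Crabp1 (-6.21). Differentiated groups share their proliferating libraries at each oxygen level.

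In proliferating cells 4 of the 6 tested genes rose at low oxygen, where rose and fell, like called, mean an adjusted p under 0.05 over all genes. Dhrs3 rose by 1.505 on the log2 scale (SE 0.21, edgeR adjusted p = 2.79e-05), from 1.25 ± 0.19 (SD, n = 4) to 3.37 ± 0.07 CPM (SD, n = 3). Cyp26b1 rose by 0.93 (SE 0.10, edgeR adjusted p = 2.17e-05), from 110.6 ± 16.9 to 202.8 ± 1.41 CPM, and Crabp2 by 0.80 (SE 0.07, edgeR adjusted p = 1.56e-07), from 27.7 ± 2.14 to 46.5 ± 1.73 CPM. Crabp1 rose by 0.30 (SE 0.05, edgeR adjusted p = 4.67e-05), the smallest of these, from 2300.0 ± 87.2 to 2723 ± 110.3 CPM, and with one fit over all 28 libraries its adjusted p was 0.514. For these 4 genes all 3 hypoxic libraries were above all 4 normoxic ones. Aldh1a1 was at -0.70 (edgeR adjusted p = 0.0943) and Aldh1a3 at -0.38 (edgeR adjusted p = 0.247). Among all 14156 genes tested 33.1% were called higher and 32.3% lower, so calls were common in this comparison. In such bulk cultures, fewer cells with a transcript and less of it per cell cannot be told apart.

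In chondrocyte cultures 2 of the 6 tested genes rose at low oxygen, the degrading enzyme and the retinal reductase. Cyp26b1 rose by 1.09 (SE 0.26, edgeR adjusted p = 0.0262), from 76.0 ± 20.1 to 163.2 ± 48.3 CPM, and Dhrs3 by 0.61 (SE 0.17, edgeR adjusted p = 0.0317), from 43.1 ± 5.93 to 65.9 ± 17.1 CPM. Both calls were narrow: without normoxic replicate 2, 3 or 4 the adjusted p of Cyp26b1 was 0.0591, 0.0717 or 0.0746, and without replicate 1, 2 or 3 that of Dhrs3 was 0.0681, 0.0745 or 0.0808. With no filter on low counts they were 0.0745 and 0.121. Crabp2 stood at 0.52 (SE 0.23, edgeR adjusted p = 0.162). Without normoxic replicate 4, its highest normoxic library, the value was 0.77 (edgeR adjusted p = 0.000212). Crabp1 stood at -1.19 (SE 0.47, edgeR adjusted p = 0.0879) between 98 and 33 counts per group, and without normoxic replicate 1 at -1.40 (edgeR adjusted p = 0.0398). Aldh1a1 was at 0.66 (edgeR adjusted p = 0.390) and Aldh1a3 at 0.21 (edgeR adjusted p = 0.507). Among all 14205 genes tested 10.4% were called higher and 11.8% lower.

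In osteoblast cultures 2 of the 6 tested genes rose and 2 fell at low oxygen. Aldh1a3 rose from 2 counts in 4 normoxic libraries to 243 counts in 3 hypoxic ones, a ratio of 167.2 (95% counting interval 45.8 to 1389, edgeR adjusted p = 6.87e-06). Cyp26b1 rose by 2.20 (SE 0.39, edgeR adjusted p = 0.00232), from 128.4 ± 77.8 to 592.7 ± 24.6 CPM. Both were separate between the groups in every library. The binding proteins went the other way: Crabp1 fell by 1.79 (SE 0.51, edgeR adjusted p = 0.0196) and Crabp2 fell by 1.65 (SE 0.49, edgeR adjusted p = 0.0236). Among all 14533 genes tested 27.0% were called higher and 27.3% lower. Aldh1a1 was at 0.10 (edgeR adjusted p = 0.634) and Dhrs3 at -0.08 (edgeR adjusted p = 0.747).

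Replicate 4 of the normoxic osteoblasts widened the error of 3 of these values. Without it Crabp1 fell by 2.11 (SE 0.10, edgeR adjusted p = 1.14e-09), Crabp2 fell by 1.96 (SE 0.12, edgeR adjusted p = 1.31e-08) and Cyp26b1 rose by 2.73 (SE 0.07, edgeR adjusted p = 4.31e-12), with no overlap left between the groups. Dhrs3 then fell by 0.23 (SE 0.09, edgeR adjusted p = 0.0306), a call that was not made with all 4 libraries. With replicate 4 in place, the Crabp1 and Crabp2 calls were lost without hypoxic replicate 2 (edgeR adjusted p = 0.0576 and 0.0648) and in limma-voom (adjusted p = 0.0806 and 0.0967), and with no filter on low counts (edgeR adjusted p = 0.0745 and 0.0870). Crabp2 was also lost without hypoxic replicate 1 (edgeR adjusted p = 0.0673). In this library the osteoblast markers were also higher: Alpl, the bone alkaline phosphatase, was at 40.0 CPM against 1.39 to 2.52 CPM in replicates 1 to 3, and hypoxic osteoblasts averaged 74.6 CPM. Their part in the retinoid gene levels was not tested. Aldh1a3 was as low in replicate 4 as in the rest of its group, and without that library its log2 value was 6.67 (edgeR adjusted p = 1.54e-07), which rests on the same 2 counts.

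**Figure D3:**
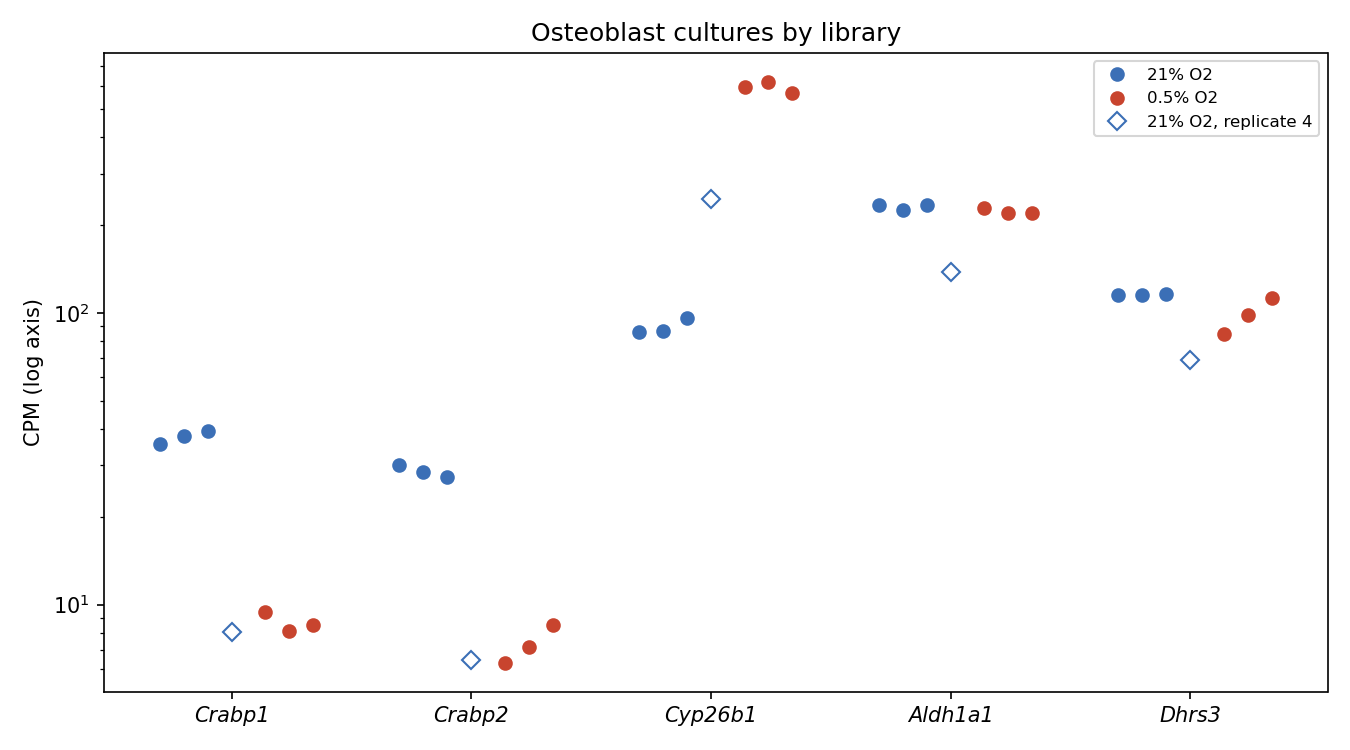
CPM of 5 genes in each osteoblast library on a log axis, 21% O2 as blue circles with replicate 4 as an open diamond and 0.5% O2 as red circles. For Crabp1 and Crabp2 replicate 4 sits with the hypoxic libraries, for Cyp26b1 it lies between the groups, and for Aldh1a1 and Dhrs3 it lies below all other osteoblast libraries.

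In smooth muscle medium 1 of 7 tested genes rose and 5 fell at low oxygen, under the limits on the hypoxic libraries given above. Crabp1 rose by 2.15 (SE 0.11, edgeR adjusted p = 1.00e-10), from 622.2 ± 70.2 to 2640 ± 404.4 CPM. Dhrs3 fell by 2.68 (SE 0.21, edgeR adjusted p = 1.45e-08), Cyp26b1 fell by 1.56 (SE 0.13, edgeR adjusted p = 3.15e-08) and Crabp2 fell by 0.91 (SE 0.11, edgeR adjusted p = 2.17e-06). Aldh1a3 fell by 2.57 (SE 0.75, edgeR adjusted p = 0.00602), on 11 counts of which replicate 3 held 10, and without that replicate it stood at -5.40, still called. Stra6 went from 153 counts to 2, both in replicate 3, a ratio of 18.8 (95% counting interval 5.13 to 157, edgeR adjusted p = 0.000529). Without that replicate the fitted log2 value moved from -4.06 to -7.90, against 0 counts. Aldh1a1 was at -0.81 (edgeR adjusted p = 0.388). For the 6 called genes the libraries of the groups did not overlap. Among all 14914 genes tested 35.4% were called higher and 40.2% lower, and their median was -0.12. Scaled by library size alone that median was -1.49 and Crabp1 was at 0.77, Crabp2 at -2.28, Cyp26b1 at -2.93, Aldh1a3 at -3.92 and Dhrs3 at -4.04, so each kept its direction, and Aldh1a1 was called at -2.14 (edgeR adjusted p = 0.0235).

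**Figure D4:**
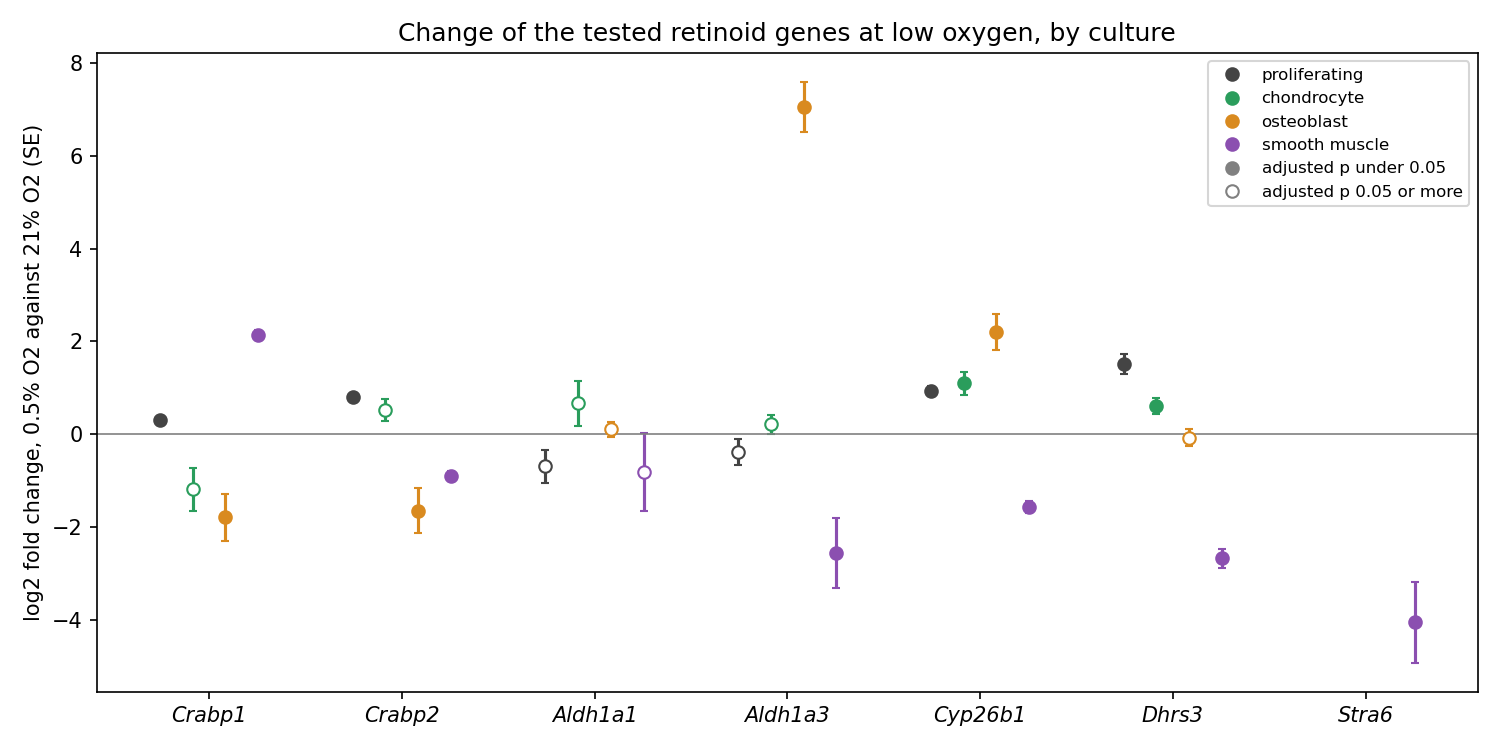
Log2 fold change at 0.5% O2 against 21% O2 with its SE for the 7 tested genes, coloured by culture and filled where the adjusted p is under 0.05. Crabp1, Crabp2, Cyp26b1 and Dhrs3 each have called values on both sides of 0, and the osteoblast value of Aldh1a3 rests on 2 normoxic counts. For Cyp26b1 and Dhrs3 the called value below 0 is that of smooth muscle alone, which rests on the libraries labelled hypoxic smooth muscle.

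The difference between cultures in the response to oxygen was tested with an interaction term, the log2 change on differentiation at 0.5% O2 less that at 21% O2. Since the falls of Crabp1 on differentiation enter its term, Crabp1 is not counted here and its terms are given as values: -2.05 (SE 0.53) for osteoblasts, 1.89 (SE 0.13) for smooth muscle and -1.48 (SE 0.30) for chondrocytes. The differentiation values of the other genes, which helped to choose them, enter their terms too. Their calls are therefore not independent of that choice. For osteoblasts the term was called for 4 of 5 other genes (54.2% of all genes): Aldh1a3, which rests on the 2 normoxic counts (edgeR adjusted p = 1.18e-07), Crabp2 at -2.41 (SE 0.52, edgeR adjusted p = 0.00181), Dhrs3 at -1.56 (SE 0.27, edgeR adjusted p = 0.000204) and Cyp26b1 at 1.31 (SE 0.45, edgeR adjusted p = 0.0279). Crabp2 was thus higher at low oxygen in proliferating cells and lower in osteoblasts, and the rise of Cyp26b1 was larger in osteoblasts. The Cyp26b1 term missed the threshold without normoxic proliferating replicate 4, any 1 hypoxic proliferating library or hypoxic osteoblast replicate 2 (edgeR adjusted p = 0.05 to 0.0529), and with no filter on low counts (edgeR adjusted p = 0.0635). For smooth muscle it was called for 4 of 6 genes (70.4% of all genes), Dhrs3 at -4.15 (SE 0.28, edgeR adjusted p = 1.03e-11), Cyp26b1 at -2.46 (SE 0.17, edgeR adjusted p = 6.82e-11), Aldh1a3 at -2.16 (SE 0.79, edgeR adjusted p = 0.0191) and Crabp2 at -1.67 (SE 0.13, edgeR adjusted p = 1.20e-10). Scaled by library size alone the smooth muscle terms were 0.55 for Crabp1, -3.01 for Crabp2, -3.47 for Aldh1a3, -3.79 for Cyp26b1 and -5.48 for Dhrs3, with the 4 calls kept. Without the libraries labelled hypoxic smooth muscle replicate 1 or 2, the Aldh1a3 term had an adjusted p of 0.0816 or 0.0699. For chondrocytes it was called for 1 of 5 genes (43.5% of all genes), Dhrs3 at -0.91 (SE 0.26, edgeR adjusted p = 0.00832), a call lost in limma-voom (adjusted p = 0.108). The Aldh1a1 term missed the threshold in chondrocytes (1.36, edgeR adjusted p = 0.114) but passed it without normoxic chondrocyte replicate 4 (1.775, edgeR adjusted p = 0.0123). In osteoblasts it was 0.82 (edgeR adjusted p = 0.0695), and it passed without normoxic osteoblast replicate 4 (0.66, edgeR adjusted p = 0.0157) or hypoxic proliferating replicate 3 (1.07, edgeR adjusted p = 0.0445). The 3 terms share the proliferating libraries.

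Chondrocyte cultures held less Aldh1a1 and Dhrs3 and more Crabp2 than osteoblast cultures at both oxygen levels. At 21% O2 Aldh1a1 stood at -4.75 on the log2 scale, chondrocyte against osteoblast (SE 0.38, edgeR adjusted p = 1.24e-05), and Dhrs3 at -1.29 (SE 0.17, edgeR adjusted p = 0.000193), while Crabp2 was higher by 1.22 (SE 0.43, edgeR adjusted p = 0.0367), a call lost in 8 of 17 other fits (highest adjusted p = 0.115). In 5 of those fits the library left out was chondrocyte replicate 2, 3 or 4 or osteoblast replicate 2 or 3, with adjusted p from 0.0506 to 0.0872. Aldh1a3 was higher by a ratio of 186.2 (95% counting interval 51.2 to 1543, edgeR adjusted p = 2.25e-06), on the 2 osteoblast counts. At 0.5% O2 Aldh1a1 stood at -4.15 (SE 0.36, edgeR adjusted p = 0.000161), Cyp26b1 at -1.86 (SE 0.18, edgeR adjusted p = 1.54e-05) and Dhrs3 at -0.57 (SE 0.17, edgeR adjusted p = 0.0171), and Crabp2 was higher by 3.43 (SE 0.13, edgeR adjusted p = 5.03e-10). Without hypoxic osteoblast replicate 3 the Dhrs3 value was -0.48 (edgeR adjusted p = 0.108). Leaving Crabp1 uncounted, since it was chosen on its fall on differentiation, 4 of 5 genes were called in each comparison, beside 59.7% of all genes at 21% O2 and 57.6% at 0.5% O2.

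Against normoxic smooth muscle, osteoblasts held more Aldh1a1 by 8.93 (SE 0.30, edgeR adjusted p = 4.74e-08) and more Dhrs3 by 2.84 (SE 0.17, edgeR adjusted p = 1.30e-06). They held less Stra6, at -3.91 (SE 0.53, edgeR adjusted p = 0.000141), less Aldh1a3, by a ratio of 119.1 (95% counting interval 32.7 to 988.3, edgeR adjusted p = 1.28e-05), and less Crabp2, at -1.18 (SE 0.39, edgeR adjusted p = 0.0341), the latter lost in 6 of 17 other fits, among them those without osteoblast replicate 3 or any 1 smooth muscle library (adjusted p = 0.0513 to 0.0638). Cyp26b1 stood at 0.24 (edgeR adjusted p = 0.596) and at -0.28 without osteoblast replicate 4 (edgeR adjusted p = 0.0451), so that library sets its sign. Without Crabp1, calls were made for 5 of 6 genes, and for 49.7% of all genes. Chondrocyte cultures held more Aldh1a1 by 4.17 (SE 0.45, edgeR adjusted p = 9.30e-06) and more Dhrs3 by 1.55 (SE 0.11, edgeR adjusted p = 1.34e-08) than smooth muscle, and less Stra6, at -1.80 (SE 0.45, edgeR adjusted p = 0.00228). Crabp2 stood at 0.04 (edgeR adjusted p = 0.884), and at -0.20 without chondrocyte replicate 4 (edgeR adjusted p = 0.0390). Cyp26b1 stood at -0.54 (SE 0.19, edgeR adjusted p = 0.0293), a call lost in 8 of 17 other fits, among them those without chondrocyte replicate 2, 3 or 4 or smooth muscle replicate 1 or 4 (adjusted p = 0.0510 to 0.0969). Aldh1a3 stood at 0.62 (edgeR adjusted p = 0.0587) and was called in 8 of 17 other fits, among them those without chondrocyte replicate 1 or 4 (adjusted p = 0.0319 and 0.0432) or smooth muscle replicate 4 (adjusted p = 0.0104). Here 4 of 6 genes were called without Crabp1, beside 67.7% of all genes. Crabp1 averaged 30.1 CPM in normoxic osteoblast, 622.2 CPM in smooth muscle and 0.892 CPM in chondrocyte cultures.

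The rest of the pathway was followed through 50 further genes listed by function, of which 29 were tested in at least 1 of the 17 comparisons. Untested genes included Rbp4 and Ttr, the blood carriers of retinol, Lrat, which stores it as esters, and the Hox genes Hoxb1, Hoxb2, Hoxb4 and Hoxd4. In normoxic chondrocyte cultures 18 of 26 tested rose and 6 fell (all genes: 37.7% higher, 37.2% lower), with a median log2 change of 0.35 beside -0.003 over all genes. Scaled by library size alone 12 rose and 8 fell, and the medians were 0.002 and -0.35. The largest rises were those of Tgm2, a transglutaminase that retinoic acid induces (5.78, from 3.41 to 178.3 CPM), Rarres1 (5.56), Rdh12 (2.32, from 25 to 78 counts) and Rdh10, the main retinol dehydrogenase of the embryo (2.31, from 3.18 to 15.1 CPM). Adh7 (-1.58) and Meis2 (-1.12) were among the falls past 1. At 0.5% O2 14 of 27 rose and 9 fell (all genes: 34.9% and 34.6%; by library size alone 8 rose and 13 fell), led by Tgm2 (5.80), Rarres1 (3.42), Rdh10 (3.04) and Dhrs4 (1.47) against Bco2 (-2.80, from 66 to 9 counts), Adh7 (-2.15) and Rdh5 (-1.48).

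In normoxic osteoblasts 20 of 28 rose and 5 fell (all genes: 40.9% and 37.8%), with Rarres1 (5.92), Adh1, an alcohol dehydrogenase (5.55, from 13 to 446 counts), Rdh12 (3.52, from 25 to 191 counts) and Rdh10 (1.83) leading the rises, and Fabp5 (-1.83) and Dhrs9 (-1.54) among the falls. In hypoxic osteoblasts 15 of 27 rose and 5 fell (all genes: 36.2% and 35.1%), with Rarres1 (6.88), Tgm2 (5.66), the receptor partner Rxra (1.97) and Rdh12 (1.17) against Rdh5 (-1.81) and Adh7 (-1.43). In normoxic smooth muscle 18 of 28 rose and 5 fell (all genes: 40.8% and 38.9%), and Adh1 (7.23, from 13 to 1624 counts), Rarres1 (2.97), Rdh10 (2.95) and Rdh12 (2.74, from 25 to 131 counts) led the rises. The libraries labelled hypoxic smooth muscle had the reverse balance against hypoxic proliferating cells, 6 of 27 higher and 15 lower (all genes: 33.8% and 36.2%), with Rxrb (1.77), Dhrs4 (1.44) and Rdh10 (1.06) higher and Dhrs9 (-3.66), Bco2 (-2.50, on 4 counts against 66) and Meis1 (-1.94) lower. Those higher values depend on the scaling: by library size alone 1 gene was called higher and 22 lower, Rxrb was at 0.50 (edgeR adjusted p = 0.000619), Dhrs4 at 0.16 (edgeR adjusted p = 0.498) and Rdh10 at -0.21 (edgeR adjusted p = 0.531). Rdh12 had 0 counts there against 58, at least 7.52-fold lower, taking 3 counts over the group as the floor.

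Tgm2 was called higher at low oxygen in all 4 cultures with TMM scaling, a pattern noted after the values were seen, but by library size alone it was at -0.39 in smooth muscle (edgeR adjusted p = 0.280). It rose by 1.09 in proliferating cells, 1.12 in chondrocyte, 5.01 in osteoblast and 0.98 in smooth muscle cultures (edgeR adjusted p = 3.03e-05, 0.000743, 0.00154 and 0.0153, in that order). In proliferating cells 14 of 27 pathway genes rose and 4 fell (all genes: 33.1% and 32.3%), led by Rdh12 (2.22), Bco2 (2.14), Dhrs9 (1.62) and Rdh5 (1.36), with a median of 0.21 beside 0.01 over all genes. Rdh12 (from 0.144 to 0.656 CPM) and Bco2 (from 0.168 to 0.75 CPM) were low at both oxygen levels. In chondrocyte cultures 7 of 27 rose and 4 fell (all genes: 10.4% and 11.8%; by library size alone 6 and 6): Tgm2 was among the rises past 1, and Cyp26a1, a second enzyme of the Cyp26 family (-3.08, from 46 to 4 counts), and Rarres1 (-1.87) fell. Cyp26a1 fell in the culture where Cyp26b1 rose.

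In osteoblasts 8 of 28 rose and 5 fell (all genes: 27.0% and 27.3%; by library size alone 4 and 11), and the rises included Tgm2 (5.01, from 10.9 ± 11.3 to 354.9 ± 16.6 CPM), Dhrs9 (3.70) and Fabp5, which carries retinoic acid to another nuclear receptor (1.496). Adh1 (-1.98), Adh7 (-1.64) and Rdh10 (-1.06) fell. Leaving out normoxic replicate 4 raised the number of pathway genes called from 13 to 21. Over all genes the number called was 7890, and it ranged from 6618 to 9376 when single libraries were left out. In smooth muscle medium 5 of 28 rose and 19 fell (all genes: 35.4% and 40.2%; by library size alone 1 and 23), with Rxrb (1.57) and Fabp5 (1.38) among those past 1 and Adh1 (-4.51), Dhrs9 (-4.18) and Adh7 (-3.16) leading the falls. By library size alone neither rise was called, with Rxrb at 0.20 (edgeR adjusted p = 0.0549) and Fabp5 at 0.007 (edgeR adjusted p = 0.950). Rdh12 went from 131 counts to 0, at least 10.8-fold lower. Of the 11 genes tested there from the list of dehydrogenases and reductases, which also holds the carotenoid oxygenase Bco2, 10 fell, beside 40.2% of all genes, with a median over the pathway of -0.84 beside -0.12 over all genes.

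**Figure D5:**
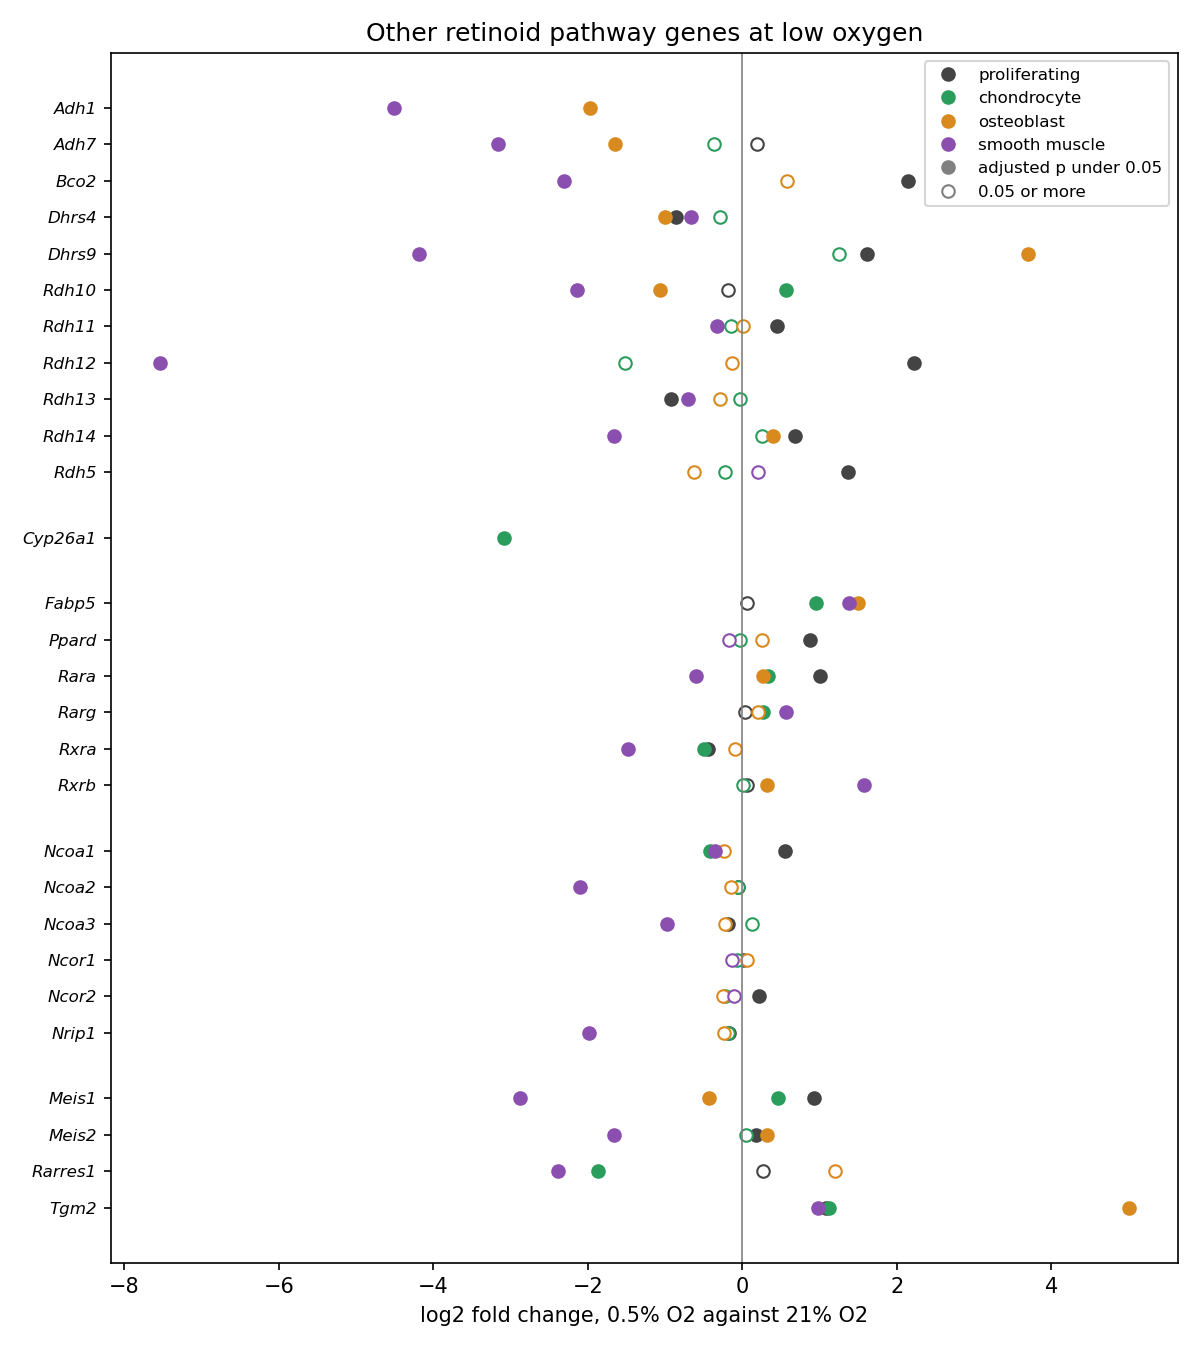
Log2 fold change at 0.5% O2 against 21% O2 for 28 tested pathway genes, in blocks by role from dehydrogenases and reductases at the top to retinoic acid responsive genes at the bottom, coloured by culture and filled where the adjusted p is under 0.05. Tgm2 is to the right of 0 in all 4 cultures, though not in smooth muscle when scaled by library size alone, most purple points of the dehydrogenase block are to the left, and the smooth muscle value of Rdh12 is set by 0 counts and is no bound.

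The interaction terms of these genes were called higher for 7 of 28 and lower for 10 in chondrocyte (all genes: 21.6% and 21.9%), 7 and 9 in osteoblast (28.9% and 25.3%), and 4 and 18 in smooth muscle cultures (34.9% and 35.5%). By library size alone these were 7 and 10, 6 and 11, and 1 and 25. For osteoblasts Tgm2 (3.96), Dhrs9 (2.13) and Fabp5 (1.48) were among the highest called and Rdh12 (-2.31), Rdh5 (-1.96), Adh7 (-1.79) and Meis1 (-1.32) the lowest. For chondrocytes Rdh12 (-3.72), Bco2 (-3.26), Rarres1 (-2.10) and Rdh5 (-1.58) were the lowest called. For smooth muscle Rxrb (1.55) and Fabp5 (1.36) stood against Dhrs9 (-5.76), Bco2 (-4.44), Adh1 (-3.79) and Rdh12, whose value rests on 0 counts, and by library size alone Rxrb (0.21) and Fabp5 (0.02) were not called. Between chondrocyte and osteoblast cultures at 21% O2, Tgm2 (4.00) and Fabp5 (2.10) were higher and Adh1 (-3.93), Adh7 (-2.02) and Meis2 (-1.33) lower. At 0.5% O2 Rdh10 (2.10) and Fabp5 (1.59) were higher and Rarres1 (-3.44), Rdh12 (-2.59) and Bco2 (-2.49) lower. Normoxic osteoblasts against smooth muscle had Rarres1 (2.95) and Tgm2 (2.40) higher and Dhrs9 (-3.63), Adh7 (-1.87), Adh1 (-1.62) and Rdh10 (-1.13) lower. Chondrocyte cultures against smooth muscle had Tgm2 (6.38), Rarres1 (2.54) and Fabp5 (1.01) higher and Adh1 (-5.57), Adh7 (-3.89) and Dhrs9 (-3.03) lower.

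The genes whose group means of log2(CPM + 1) were most like those of Crabp1 over the 8 groups, among 10208 named genes with at least 10 CPM in some group, were Bst2 (Pearson r = 0.988), Fam213a (0.985), Egfl7 (0.981), Nfyb (0.977) and Nipsnap1 (0.976). Bst2, a membrane protein induced by interferon, averaged 121.7 CPM in normoxic proliferating cells and 5.97 CPM in normoxic chondrocyte cultures, and 161.0 CPM in the libraries labelled hypoxic smooth muscle. In all, 109 genes had r above 0.9, over points that share library scaling. Ranked by Spearman correlation over the 28 libraries, 3 of these 5 were again among the first 5, while Nfyb ranked 136 and Nipsnap1 162. The correlation takes no account of size: Nfyb averaged only 21.8 to 39.7 CPM over the groups.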

How the data were processed

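PolyA RNA of 28 libraries was compared as deposited gene-level counts, which the authors made with HISAT2 2.0.5, StringTie 1.3.3b and featureCounts 1.5.0-p3 on mm10, per the submitters' processing notes, which give no order or strand setting. The 70 columns of normalised values of single libraries were not used. Levels are CPM after TMM scaling in edgeR 4.0.16 (R 4.3.3). Each comparison was fitted on its own libraries with edgeR's quasi-likelihood test after its filter on low counts, with Benjamini-Hochberg adjustment over all genes tested, without a replicate block, since residuals of same-numbered libraries correlated by -0.283 to 0.194. The fit was tried on simulated counts for some of the comparisons, with the same dispersion for all genes. The simulation held no outlying library and no shift in RNA composition, so it does not cover such libraries here. Alternatives were limma-voom (limma 3.58.1), DESeq2 1.42.0, other scalings and filters, 1 fit over 28 libraries, a block, libraries left out, and, chosen after seeing the data, replicates 1 to 3 alone. Pathway genes named are those called with a log2 change of at least 1, up to 4 each way per comparison. Some listed genes are counted there but not reported here. The 9 genes and the lists were chosen with earlier results of these data known. Counting intervals (95%, exact) cover counting error only, as do floors of 3 counts per group. Coordinates are from GENCODE M21. Replicate libraries held no identical pairs.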

Additional observations from a re-analysis of the deposited data

Results flagged for a closer look

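In 8 of 22 gene and normoxic group pairs with a mean of at least 1 CPM, 1 of 4 libraries lay far from the other 3 by Dixon's criterion, which chance alone meets in about 1 of 20 groups. Replicate 4 of the normoxic osteoblasts was that library for 5 genes, the lowest for Crabp1 (8.04 CPM), Crabp2 (6.47 CPM), Aldh1a1 (138.1 CPM) and Dhrs3 (68.7 CPM) and the highest for Cyp26b1 (244.9 CPM). Replicate 4 was also the highest for Aldh1a1 in proliferating cells (1.65 CPM) and the lowest for Dhrs3 in smooth muscle (11.96 CPM). For Cyp26b1 in chondrocyte cultures replicate 1 was the highest (105.7 CPM).

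The response to differentiation differed between oxygen levels by an interaction term in 9 of 16 tests without Crabp1, beside 43.5% of all genes called for the chondrocyte, 54.2% for the osteoblast and 70.4% for the smooth muscle term. Differentiation values, which helped to choose these genes, enter the terms, so the count is not independent of that choice. In chondrocyte cultures the term was called for Dhrs3 (-0.91). In osteoblasts they were Crabp2 (-2.41), Aldh1a3 (7.52, with 2 counts in normoxic osteoblasts), Cyp26b1 (1.31) and Dhrs3 (-1.56). In smooth muscle medium they were Crabp2 (-1.67), Aldh1a3 (-2.16), Cyp26b1 (-2.46) and Dhrs3 (-4.15), and all of these rest on the libraries labelled hypoxic smooth muscle. The terms of Crabp1, whose falls on differentiation chose it, were -1.48 in chondrocyte, -2.05 in osteoblast and 1.89 in smooth muscle cultures and are given as values alone.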

How the results depend on the processing

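Of 1246 alternative values of single genes in the oxygen, interaction and lineage comparisons, 1148 kept their side of the threshold and direction, 17 changed sign with no call in either fit, 51 lost a call, 26 gained one and 4 reversed. Of 587 for the untested differentiation values, 27 moved by more than the spread between replicates and 19 changed sign. The reversals were Cyp26b1 in osteoblasts against smooth muscle, -0.28 without osteoblast replicate 4 (up to 0.40 with other single libraries left out) and -0.17 with replicates 1 to 3 alone, and Crabp2 in chondrocyte cultures against smooth muscle, -0.20 without chondrocyte replicate 4 (up to 0.18 likewise) and -0.19 with replicates 1 to 3 alone. The number of genes called at low oxygen in chondrocyte cultures, 3157, ranged from 2091, without hypoxic replicate 3, to 3359 when single libraries were left out. For the other comparisons every count stayed within 1.5 times its value. With a replicate block it was 10035 in proliferating, 2795 in chondrocyte, 9269 in osteoblast and 10302 in smooth muscle cultures. No set of same-numbered libraries correlated over 0.1 in all its pairs, so the numbers are taken not to pair the libraries. All pairs of normoxic osteoblast against smooth muscle were positive (0.0576 to 0.194), while the range over all comparisons was -0.283 to 0.194. Replicate 4 exists only at 21% O2, so the block cannot compare it between oxygen levels. Under the block the Crabp2 rise in chondrocyte cultures was called (0.76, adjusted p = 0.00309) and the Dhrs3 rise was not (0.67, adjusted p = 0.0617), while the Dhrs3 fall in osteoblasts was (-0.24, adjusted p = 0.0151). Scaled by library size alone, calls at low oxygen shifted towards lower, to 1091 higher and 2336 lower in chondrocyte cultures (1482 and 1675 with TMM), 3036 and 5200 in osteoblasts (3917 and 3973) and 2002 and 10831 in smooth muscle (5277 and 5994). In chondrocyte cultures against proliferating cells they were 3899 and 7349 at 21% O2 (5416 and 5344) and 3353 and 7202 at 0.5% O2 (5005 and 4970), in hypoxic osteoblasts 3994 and 6459 (5193 and 5034), and in the libraries labelled hypoxic smooth muscle 1748 and 9941 (4763 and 5095). The smooth muscle interaction had 2019 and 10115 (5453 and 5550), chondrocyte against osteoblast at 21% O2 2993 and 5733 (4098 and 4448), osteoblast against smooth muscle 2313 and 5832 (3691 and 3558) and chondrocyte against smooth muscle 2750 and 8007 (4831 and 5071). Depth limits Aldh1a2, Rarb, Stra6 and, in normoxic osteoblasts, Aldh1a3, where a few counts per group set the value. It also limits the pathway values of Rdh12, Bco2 and Adh1, which had 25, 31 and 13 counts in the normoxic proliferating group.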
